A study of Homo sapiens with 18 samples.

Results

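The 5 genes examined encode abundant noncoding RNAs: RN7SL1 and RN7SL2, which encode 7SL RNA, RN7SK, RMRP and RPPH1. They were chosen by name and make up 5 of the 60707 genes read from the count table. RN7SL1 was the member with reads: it held 1248636 counts over 18 libraries, and RN7SL2, RN7SK, RMRP and RPPH1 were listed at 0 in all 18. RNA came from Raji cells, an established Burkitt lymphoma line, whose genotype was labelled Smarca4+/+ in every group, in a study of SMARCA4 protein degradation through an auxin-inducible degron. SMARCA4, also called BRG1, is an ATPase of the BAF chromatin remodelling complex. The 6 groups were GFP low and GFP high cells, each at 24, 48 and 72 h, with 3 libraries in each group. Column headers of one library set join GFP with BRG1, while the sources used here do not say what the GFP level reports, what auxin dose was used or whether libraries came from separate cultures. The p-values thus measure how far these libraries differ, and that spread may be technical.

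7SL RNA is the scaffold of the signal recognition particle, which binds signal peptides as they leave the ribosome and brings the ribosome to the endoplasmic reticulum. 7SK RNA holds the kinase P-TEFb, made of CDK9 and cyclin T, in an inactive particle with HEXIM1, HEXIM2, LARP7 and MEPCE, and its release lets paused RNA polymerase II move on. RMRP is the RNA of RNase MRP, which cuts precursor ribosomal RNA, and RPPH1 is the RNA of RNase P, which trims the 5′ end of precursor transfer RNA. These RNAs are made by RNA polymerase III and carry no poly(A) tail. Libraries were made from total RNA after removal of ribosomal RNA, a method that does not select for poly(A).

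The 7SL and 7SK genes have many near-identical copies, so their sequences set how far a read can be placed. RN7SK and RN7SKP80 are shown because the copy took most reads of its family. Sequences are GENCODE 29 transcripts (GRCh38), with T for U. Capitals mark bases that differ or lack a partner between RN7SK and RN7SKP80. RN7SK is given from position 29 to its end at 328.
RN7SK: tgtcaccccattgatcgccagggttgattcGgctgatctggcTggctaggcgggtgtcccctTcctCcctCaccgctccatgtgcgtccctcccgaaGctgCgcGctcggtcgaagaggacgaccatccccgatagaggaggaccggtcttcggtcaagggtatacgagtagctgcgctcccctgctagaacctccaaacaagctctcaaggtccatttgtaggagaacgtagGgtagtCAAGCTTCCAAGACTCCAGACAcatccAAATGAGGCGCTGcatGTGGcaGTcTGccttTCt
RN7SKP80: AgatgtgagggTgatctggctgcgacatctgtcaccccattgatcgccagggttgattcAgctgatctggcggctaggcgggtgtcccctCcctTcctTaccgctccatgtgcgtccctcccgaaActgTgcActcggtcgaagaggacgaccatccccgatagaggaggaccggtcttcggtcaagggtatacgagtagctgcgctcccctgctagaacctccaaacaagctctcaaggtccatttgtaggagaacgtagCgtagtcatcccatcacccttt

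RN7SL1 and RN7SL2 matched at 295 bases, an identity of 98.3% over the global alignment, with 4 mismatches and 1 gap position. RN7SL1 and RN7SL3 were 97.7% identical, with 7 mismatches and no gap. Of the 200 windows of 100 bases in RN7SL1, 149 (74.5%) occurred unchanged in a transcript of another locus: 110 in RN7SL5P, 106 in RN7SL2, 34 in RN7SL4P and 24 in RN7SL3. At 150 bases the share was 66.0%. A read of that length can thus fit RN7SL1 and another copy, and which reads were kept when they fitted several places is not given in the sources used here. RN7SL1 counts are read below as counts of 7SL RNA placed on this gene, uncertain as to the copy. RN7SL3 was easier to place, with 24 of 200 windows (12%) found elsewhere. RN7SK shared 119 of 229 windows of 100 bases (52.0%) with copies, while RN7SKP80 shared 29 of 184 (15.8%). Unlike RN7SL1, none of RN7SL3, RN7SK and RN7SKP80 shared a window of 150 bases with another locus. RMRP and RPPH1 shared no window of 50 bases with another locus.

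The members at 0 lay inside other genes of the same table. RN7SL2, RN7SK, RMRP and RPPH1 each fell wholly within the exons of another listed gene on the same strand. RN7SL2 (ENSG00000274012.1, chr14:49862550-49862849 on hg38, minus strand) lies in an exon of ENSG00000282885.2, which held 1464 counts in all. RN7SK (ENSG00000283293.1, chr6:52995621-52995948, plus strand) is covered by a second 7SK entry that starts 1 base earlier and was also at 0. RMRP (ENSG00000277027.1, chr9:35657754-35658017, minus strand) has a second entry of 268 bases around it, also at 0. RPPH1 (ENSG00000277209.1, chr14:20343075-20343407, minus strand) lies in ENSG00000259001.3, which held 83 counts in all. RN7SL1 (ENSG00000276168.1, chr14:49586580-49586878, plus strand) shared no exon base with another listed gene: it sits within the span of the ribosomal protein gene RPS29, which is read from the other strand and has its exons elsewhere.

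Over the whole table, the 984 genes that lie wholly inside the exons of another gene on the same strand were all at 0 in all 18 libraries. Among the 766 genes inside exons of the opposite strand only, 289 (37.7%) were at 0, and among the 42229 genes that touch no other gene, 18948 (44.9%) were. RN7SL2, RN7SK, RMRP and RPPH1 thus have the value that every gene in this position has here, and their 0 sets no level for these RNAs. As a counting limit alone, 0 counts allow up to 3, which is 0.0541 to 0.110 counts per 1e6 counts (CPM) in these libraries. GENCODE 29 also lists a record over RN7SL1 itself, AL139099.4 (chr14:49586579-49586878, plus strand), which is not among the genes read from the table.

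**Figure D1:**
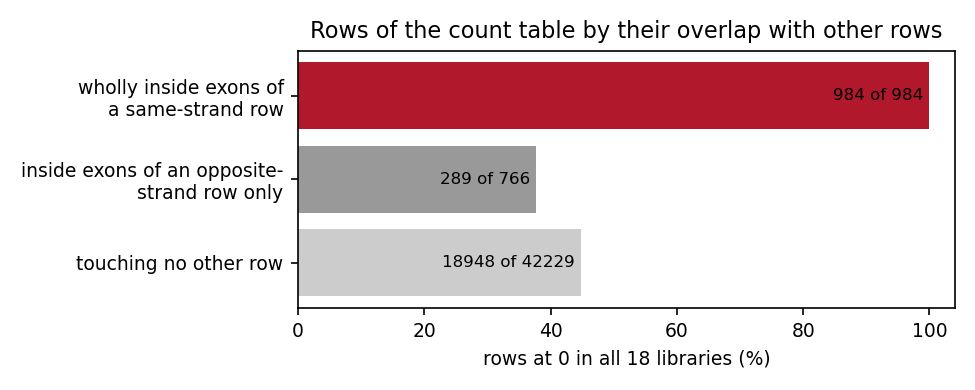
Share of genes at 0 in all 18 libraries (x axis, percent) by their position relative to other genes of the table (y axis). All 984 genes wholly inside same-strand exons were at 0, against 37.7% of those inside opposite-strand exons only and 44.9% of those touching no other gene.

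RN7SL1 was among the most counted genes. Its mean over the 18 libraries was 1833 CPM, rank 32 of 60707 genes, where CPM is scaled by the trimmed mean of M-values (TMM). Per kilobase of exon its mean was 6129 CPM, rank 1, against 209.7 for RN7SL3 (rank 136) and 152 for RN7SKP80 (rank 202). It took 0.0580% to 0.386% of a library's counts. Libraries held 27257876 to 55419458 counts, and B cell markers were present in every group, with MS4A1 at 428 to 809 CPM and CD79A at 291 to 382 CPM. CD8A was at 0 in all libraries and CD3D reached 3.39 CPM. SMARCA4 mRNA, which degradation of the protein need not lower, was at 575 to 614 CPM in GFP low and 411 to 429 CPM in GFP high cells at 24 h (log2 fold change 0.50, edgeR adjusted p = 3.27e-12). It was also higher in GFP low cells at 48 h (0.11, edgeR adjusted p = 0.00748) and at 72 h (0.20, adjusted p = 2.17e-05).

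RN7SL1 differed between GFP low and GFP high cells at every time, and the direction turned between 24 and 48 h. At 24 h RN7SL1 had 1054, 1102 and 1458 CPM in GFP low cells, against 2015, 2054 and 2227 CPM in GFP high cells. All 3 GFP low libraries lay below all 3 GFP high libraries. The means were 1205 ± 220.2 CPM in GFP low and 2099 ± 112 CPM in GFP high cells (SD, n = 3 each), a log2 fold change of -0.80 ± 0.13 (SE; adjusted p = 1.21e-05, edgeR quasi-likelihood test with Benjamini-Hochberg adjustment over 16474 genes). It was 1 of 5 members called at 24 h, where 57.9% of all tested genes were called and 28.5% were called lower, and 924 of the 16474 had a lower value. The 4 members at 0 did not pass the filter on low counts and were not tested.

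At 48 h RN7SL1 had 1649, 1230 and 1600 CPM in GFP low cells, against 587, 783 and 860 CPM in GFP high cells. All GFP low libraries lay above all GFP high libraries. The means were 1493 ± 229 CPM in GFP low and 743 ± 141 CPM in GFP high cells, a log2 fold change of 1.00 ± 0.13 (edgeR adjusted p = 4.02e-06). At this time 23.8% of tested genes were called, 10.6% of tested genes were called higher, and 253 had a larger value than RN7SL1. At 72 h RN7SL1 had 3912, 3824 and 3945 CPM in GFP low cells, against 1657, 1312 and 1719 CPM in GFP high cells. The GFP low libraries lay close together and far above the others. The means were 3894 ± 62.2 CPM in GFP low and 1563 ± 219 CPM in GFP high cells, a log2 fold change of 1.32 ± 0.13 (edgeR adjusted p = 7.43e-08), and 90 of 16474 genes had a larger one. At 72 h 26.4% of genes were called and 12.9% were called higher.

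**Figure D2:**
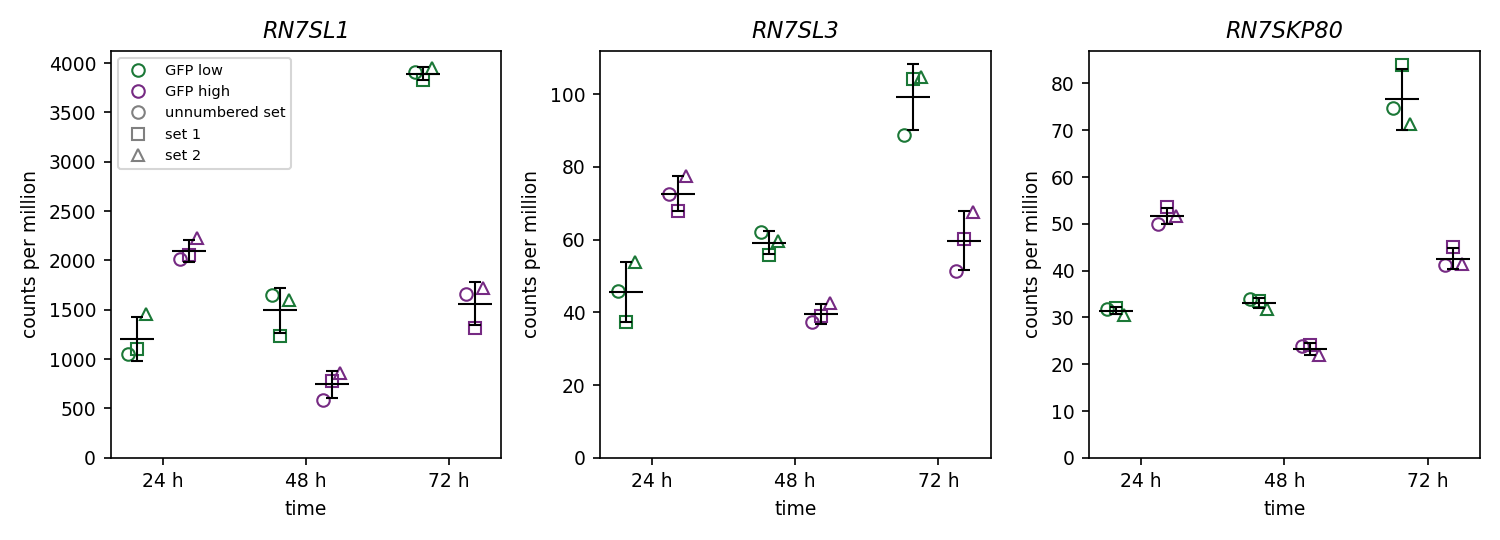
RN7SL1, RN7SL3 and RN7SKP80 in each library (y axis, CPM) by time (x axis), GFP low in green and GFP high in purple; marker shapes give the library set, and black bars the group mean ± SD of 3 libraries. In each panel the GFP low libraries sit below the GFP high ones at 24 h and above them at 48 and 72 h, with RN7SL1 reaching 3824 to 3945 CPM in GFP low cells at 72 h.

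The change in direction was tested by itself. The GFP low over GFP high difference of RN7SL1 was larger at 48 than at 24 h by 1.80 ± 0.18 log2 units (edgeR adjusted p = 3.11e-08) and larger at 72 than at 24 h by 2.12 ± 0.18 (adjusted p = 2.83e-09). For these changes 43.5% and 41.8% of genes were called, and 38 and 25 genes had a larger change than RN7SL1. From 48 to 72 h the difference grew by 0.31 ± 0.18, a difference that did not pass (edgeR adjusted p = 0.329, where 9.02% of genes passed). With the library sets as a replicate block the growth of RN7SL1 was 0.32 and passed (edgeR adjusted p = 0.000171), and in the same fit with a robust prior, which lets a gene far from the trend keep its own spread, it did not (adjusted p = 0.322). Averaged over the 3 times, RN7SL1 was higher in GFP low cells by 0.51 ± 0.07 (edgeR adjusted p = 4.18e-06, 51.9% of genes called), a mean of opposite directions. Within each library set the direction was the same as in the fit. For the unnumbered set, set 1 and set 2, the log2 ratios of RN7SL1 at 24 h were -0.93, -0.90 and -0.61. Those at 48 h were 1.49, 0.65 and 0.90, and those at 72 h were 1.24, 1.54 and 1.20.

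Over time the GFP groups took different courses. In GFP low cells RN7SL1 was higher at 72 than at 48 h by 1.38 ± 0.13 log2 units (edgeR adjusted p = 3.43e-08; 26.4% of genes called) and higher at 72 than at 24 h by 1.69 ± 0.13 (adjusted p = 1.91e-10; 57.1% called). The step between 24 and 48 h in GFP low cells was 0.31 ± 0.13 (edgeR adjusted p = 0.0467; 50.8% called), and the libraries of the times overlapped. That call of RN7SL1 was lost in 4 of 6 fits without 1 library (0.22 to 0.26) and with the robust prior (0.31, edgeR adjusted p = 0.142), and kept with the replicate block (0.32, adjusted p = 1.82e-08). In GFP high cells RN7SL1 was lower at 48 than at 24 h by a log2 fold change of -1.50 ± 0.13 (edgeR adjusted p = 2.39e-08; 20.6% called), and 19 of 16474 genes had a lower value. It was higher again at 72 than at 48 h by 1.07 ± 0.13 (edgeR adjusted p = 1.91e-06; 27.8% called). At 72 h GFP high cells stood at -0.43 ± 0.13 relative to 24 h (edgeR adjusted p = 0.0139; 28.9% called), and the call was lost without the GFP high library of set 2 at 24 h (-0.38, adjusted p = 0.0542) or without that of set 1 at 72 h (-0.32, adjusted p = 0.0878). These are bulk libraries, in which fewer cells making an RNA and less RNA per cell cannot be told apart. Ordered by mean level, the 6 groups ran from GFP high at 48 h (743 CPM) through GFP low at 24 h (1205), GFP low at 48 h (1493), GFP high at 72 h (1563) and GFP high at 24 h (2099) to GFP low at 72 h (3894). GFP low at 24 h and at 48 h overlapped, as did GFP low at 48 h and GFP high at 72 h.

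The other 7SL copies held few reads beside RN7SL1. Of 678 other 7SL entries, 397 were at 0, all of them together held 67257 counts, and RN7SL3 took 64.2% of these. RN7SL3 had 45.9, 37.3 and 53.9 CPM in GFP low cells, against 72.4, 67.9 and 77.6 CPM in GFP high cells at 24 h. It had 62.1, 55.8 and 59.7 CPM in GFP low cells, against 37.2, 39.0 and 42.6 CPM in GFP high cells at 48 h. At 72 h it had 88.7, 104.3 and 104.8 CPM in GFP low cells, against 51.3, 60.3 and 67.7 CPM in GFP high cells. The groups did not overlap at any of these times, and the log2 fold changes were -0.66 ± 0.10, 0.57 ± 0.10 and 0.72 ± 0.10 (edgeR adjusted p = 8.34e-06, 0.000285 and 7.53e-06). RN7SL4P followed with -0.68 ± 0.20, 0.88 ± 0.21 and 1.20 ± 0.18 (edgeR adjusted p = 0.00538, 0.00399 and 3.94e-05). RN7SL3 and RN7SL4P share windows with RN7SL1, so their counts are not separate evidence of it.

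Most of the tested 7SL copies were not called at any time, and low counts limit what many of these tests can show. RN7SL127P and RN7SL381P, each 85.7% identical to RN7SL1, held 233 and 214 counts over the 18 libraries, against 4461 for RN7SL4P at 86.1%. Among the 40 tested copies, with identities to RN7SL1 of 70.7% to 97.7% apart from RN7SL832P (15.1%), 6 were called higher and 2 lower at 24 h, where 29.3% of all tested genes were called higher and 28.5% lower. The copies called lower were RN7SL3 and RN7SL4P. At 48 and at 72 h, 3 were called higher, RN7SL3, RN7SL4P and RN7SL5P in each case, and 1 was called lower. Of all tested genes, 10.6% and 12.9% were called higher and 13.2% and 13.5% lower at 48 and 72 h. Their median log2 fold changes were 0.22, 0.02 and -0.09 at 24, 48 and 72 h, beside 0.03, -0.01 and 0.00 over all tested genes. Across these copies the Spearman correlation between identity to RN7SL1 and the fold change was -0.19, 0.00 and 0.18 (n = 40 copies, whose reads may be shared).

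Counts of the 7SK family lay on its copies, while RN7SK itself was at 0. Whether the counts of the copies follow the level of 7SK RNA was not tested. Of 300 other 7SK entries, 196 were at 0, and RN7SKP80 held 63.9% of the 45401 counts of the rest. RN7SKP80 (chr22:42565048-42565330, minus strand) is 82.98% identical to RN7SK over the global alignment, in which gap positions count as differences, with 9 mismatches and 47 gap positions, most of them toward the 3′ end of RN7SK. At 24 h RN7SKP80 had 31.7, 32.1 and 30.6 CPM in GFP low cells, against 50.02, 53.5 and 51.6 CPM in GFP high cells. At 48 h it had 33.9, 33.6 and 31.8 CPM in GFP low cells, against 23.8, 24.1 and 21.9 CPM in GFP high cells. At 72 h it had 74.8, 83.9 and 71.3 CPM in GFP low cells, against 41.2, 45.1 and 41.3 CPM in GFP high cells. The groups did not overlap, with GFP low cells lower at 24 h and higher afterwards: the log2 fold changes were -0.72 ± 0.05, 0.51 ± 0.06 and 0.85 ± 0.05 (edgeR adjusted p = 1.48e-10, 8.10e-07 and 4.96e-11). RN7SKP80 lies within the span of RRP7BP, on the same strand, whose fold changes were -0.20, -0.14 and -0.15 (edgeR adjusted p = 0.00323, 0.0569 and 0.0482), so the 2 genes differed in sign at 48 and 72 h.

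Across the 17 tested 7SK copies, 7 were called lower and 2 higher at 24 h, 1 higher at 48 h, and 8 higher and none lower at 72 h. Of all tested genes, 28.5% were called lower and 29.3% higher at 24 h, and 10.6% and 12.9% higher at 48 and 72 h. Their median log2 fold changes were -0.85, 0.52 and 0.85, against 0.03, -0.01 and 0.00 over all tested genes. The 7 copies RN7SKP48, RN7SKP203, RN7SKP255, RN7SKP71, RN7SKP80, RN7SKP9 and RN7SKP230, were called lower at 24 h and higher at 72 h. The Spearman correlation between identity to RN7SK and the fold change was -0.35, 0.52 and 0.49 over the 17 copies. These copies share stretches with RN7SK and with each other, whose reads cannot be told apart, so they are not independent of one another.

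**Figure D3:**
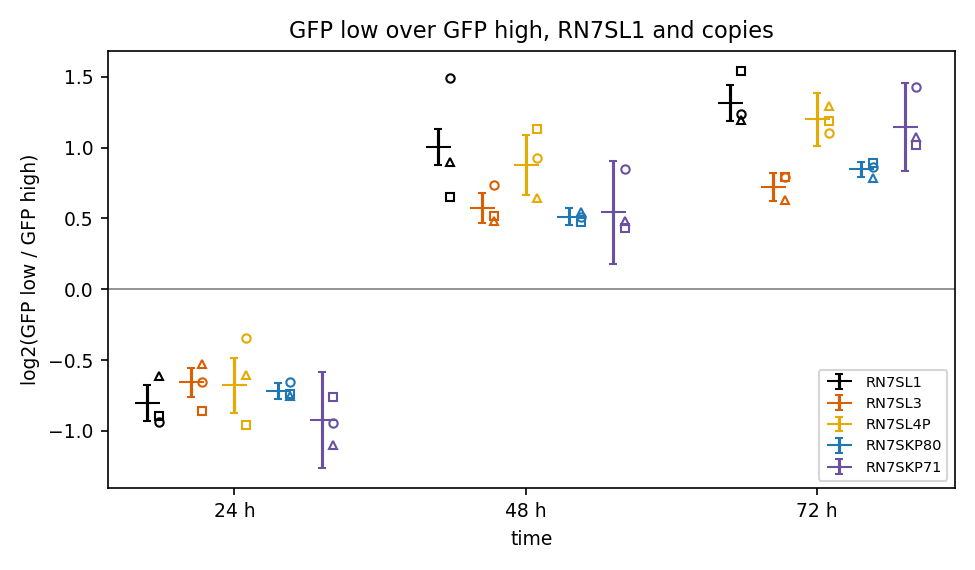
Log2 ratio of GFP low over GFP high (y axis) at 24, 48 and 72 h (x axis) for RN7SL1, RN7SL3, RN7SL4P, RN7SKP80 and RN7SKP71. Bars give the fitted value ± SE and open markers the ratio within each library set; all fitted values lie below 0 at 24 h and above 0 at 48 and 72 h, although RN7SKP71 was not called at 48 h (adjusted p = 0.320).

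**Figure D4:**
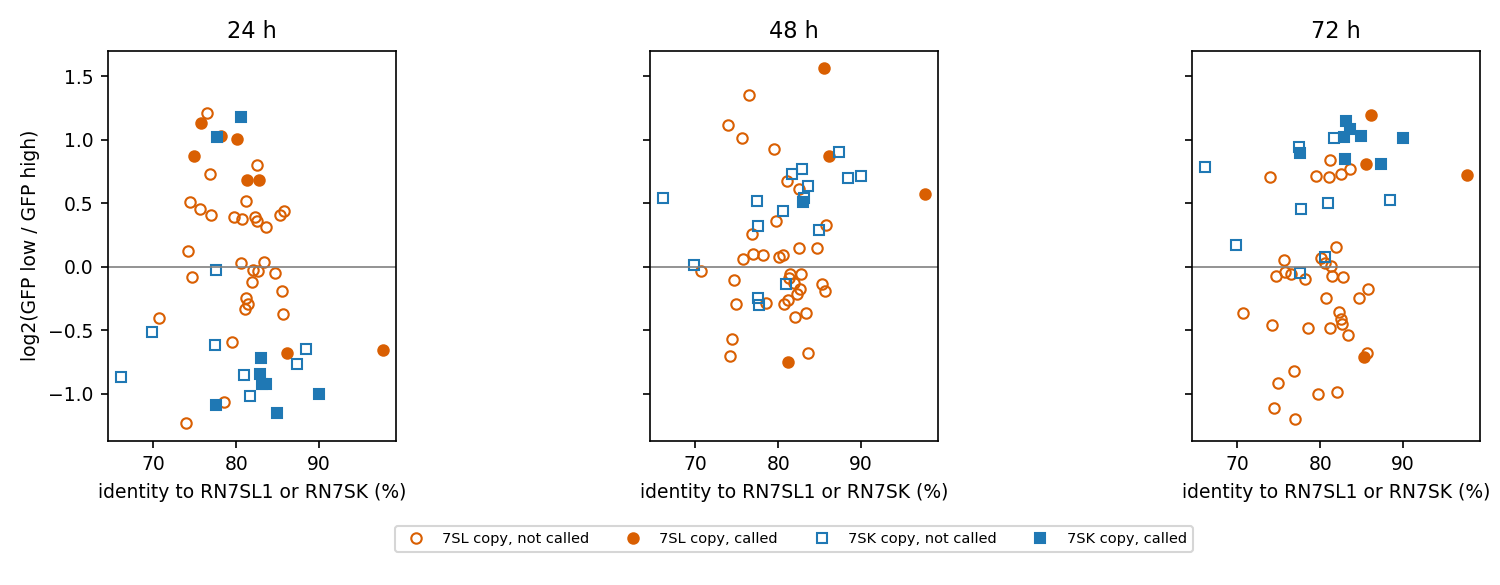
Log2 ratio of GFP low over GFP high (y axis) against identity to RN7SL1 or RN7SK (x axis, percent) for the tested 7SL copies (circles) and 7SK copies (squares) at each time; filled markers were called, and RN7SL832P, at 15.1% identity, is not drawn. Medians of the 7SK copies were -0.85, 0.52 and 0.85, and those of the 7SL copies 0.22, 0.02 and -0.09.

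With copies of 7SL and 7SK and clone-named genes left out, the genes most like RN7SL1 over the 18 libraries were mainly replication-dependent histone genes. By Pearson correlation of log2 CPM among the 11440 genes kept, H4C12 came first (r = 0.98), then H4C11 (r = 0.95) and H4C3 (r = 0.94). Each is a histone H4 gene whose mRNA ends in a stem loop in place of a poly(A) tail. Of the copies left out, RN7SL3 (r = 0.952) stood just above H4C11 and RN7SKP80 (r = 0.942) just above H4C3. Of the 20 most alike, 13 were replication histone genes and 6 were small nuclear or nucleolar RNA genes. The 18 points share libraries, groups and scaling, and the correlation is given as a description. H4C12 averaged 3.36 ± 0.25 CPM in GFP low and 6.17 ± 0.34 CPM in GFP high cells at 24 h, and 9.39 ± 0.54 CPM in GFP low and 4.98 ± 0.48 CPM in GFP high cells at 72 h (SD, n = 3 each).

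Other RNA classes moved beside RN7SL1, and their part in its result was not tested. Replication histone genes took 0.376% to 0.398% of counts in GFP low and 0.706% to 0.751% in GFP high cells at 24 h, and 0.804% to 0.849% in GFP low and 0.606% to 0.641% in GFP high cells at 72 h. Of 56 tested histone genes, 50 were called lower at 24 h, 36 higher at 48 h and 47 higher at 72 h, where 28.5%, 10.6% and 12.9% of all tested genes were called in those directions. Genes of up to 500 bases had a median log2 fold change of -0.13, -0.06 and 0.01. With the trend of fold change over gene length removed, RN7SL1 stood at -0.68, 1.07 and 1.29.

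Among genes for the proteins of the signal recognition particle and its receptor, more were called lower than higher at 24 and 72 h. Of the 8 genes for its proteins and receptor, 4 were called lower and 1 higher at 24 h, 1 lower and 1 higher at 48 h, and 4 lower and none higher at 72 h. Of all tested genes, 28.5%, 13.2% and 13.5% were called lower and 29.3%, 10.6% and 12.9% higher at the 3 times. SRP9 and SRP14 form the Alu domain heterodimer that slows elongation. At 24 h they were lower in GFP low than in GFP high cells by 0.74 and 0.62 on the log2 scale. SRP9 averaged 111 ± 3.94 CPM in GFP low and 185 ± 5.88 CPM in GFP high cells. SRPRB, the receptor subunit anchored in the membrane, stood at -0.57 and SRP54, which binds the signal peptide, at -0.27, while SRPRA, the other receptor subunit, stood at 0.09. At 48 h SRP9 was at -0.19 and SRP68 at 0.09, and the call of SRP68 was lost in 3 of 6 fits without 1 library. At 72 h, when RN7SL1 was at its highest in GFP low cells, SRP54 was at -0.17, SRP72 at -0.09, SRP9 at -0.10 and SRPRB at -0.08, and the calls of SRP72, SRP9 and SRPRB were lost in 3, 5 and 5 of 6 such fits. With the replicate block, 2 were higher at 24 h, 3 higher and 2 lower at 48 h, and 1 higher at 72 h. The shares of all tested genes given above belong to the fit without the block, and those with it are not given here. The list's medians were -0.15, -0.03 and -0.08.

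Among genes of the 7SK particle and P-TEFb, HEXIM1 had the largest differences at 24 and 72 h. Of 7 genes, 3 were called higher and 2 lower at 24 h, 2 lower at 48 h and 2 higher at 72 h, beside 57.9%, 23.8% and 26.4% of all tested genes called in either direction. The list medians were 0.07, -0.09 and 0.05, and with the replicate block, whose share of all tested genes is not given here, 1 gene was lower at 72 h. HEXIM1, which inhibits P-TEFb when bound to 7SK RNA, averaged 32.4 ± 0.18 CPM in GFP low and 22.4 ± 1.10 CPM in GFP high cells at 24 h (log2 fold change 0.54, edgeR adjusted p = 9.26e-09). At 48 h it averaged 21.4 ± 0.78 CPM in GFP low and 21.5 ± 0.54 CPM in GFP high cells, and at 72 h 23.9 ± 2.00 CPM in GFP low and 18.1 ± 0.88 CPM in GFP high cells (0.40, edgeR adjusted p = 1.05e-05). CCNT2, a cyclin T subunit, and LARP7, which binds the 3′ end of 7SK, were higher at 24 h by 0.32 and 0.17. CDK9, the kinase, was lower by a log2 fold change of -0.21 at 24 h and -0.18 at 48 h, and MEPCE, which caps 7SK, stood at -0.17 at 24 h. The later calls of LARP7 at 48 h (-0.11) and CCNT1 at 72 h (0.10) were lost in 4 and 2 of 6 fits without 1 library.

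The mRNAs for proteins of RNase P and RNase MRP, the partners of RPPH1 and RMRP, were mainly lower at 24 h. Of 11 genes, 1 was at 0 and 10 were tested: 7 were called lower and none higher at 24 h, 2 lower and 1 higher at 48 h, and 1 lower and 1 higher at 72 h. Of all tested genes, 28.5%, 13.2% and 13.5% were called lower at these times. The list's medians were -0.51, -0.02 and -0.03. At 24 h POP7 stood at -0.81, RPP25L at -0.76, RPP30 at -0.60 and POP4 at -0.56, all subunits shared by the enzymes or found with them. At 48 h POP1 was at -0.16, RPP30 at -0.16 and RPP25L at 0.23, and at 72 h POP4 was at -0.20 and RPP21 at 0.50. The calls of RPP30 and RPP25L at 48 h were each lost without 1 library, which was the GFP high unnumbered library (-0.12) for RPP30 and the GFP low library of set 2 (0.20) for RPP25L, and that of RPP21 was lost in 4 of 6 fits. With the replicate block, whose shares of all tested genes are not given here, 1 gene was higher at 24 h, 3 were higher at 48 h and 3 were lower at 72 h.

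The mRNAs for RNA polymerase III, which makes all of these RNAs, were mostly called lower at 24 h. Of its 18 subunit genes, 12 were called lower and 2 higher at 24 h, 4 lower at 48 h and 3 lower at 72 h, where 28.5%, 13.2% and 13.5% of all tested genes were called lower. With the replicate block, whose shares of all tested genes are not given here, 4 were higher at 24 h, and 5 were lower and 1 higher at 72 h. The subunits had list medians of -0.38, -0.02 and -0.02. At 24 h POLR3K stood at -0.84, POLR1D at -0.49, POLR2K at -0.84 and POLR2L at -0.86, of which POLR3K belongs to polymerase III alone, POLR1D is shared with polymerase I and the others with polymerases I and II. The catalytic subunit POLR3A was at 0.22 and CRCP at 0.11. Of those called at 48 h, POLR2K stood at -0.15, POLR2F at -0.19 and POLR1C at -0.09, and their calls were lost in 3, 5 and 5 of 6 fits without 1 library. Of those called at 72 h, POLR3C and POLR3K, both at -0.10, lost their calls in 3 and 4 of 6 such fits.

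Among 20 initiation factors and regulators of polymerase III, 10 were called lower and 5 higher at 24 h, 1 lower and 2 higher at 48 h, and 2 higher at 72 h, beside 57.9%, 23.8% and 26.4% of all tested genes called in either direction, with list medians of -0.13, -0.01 and -0.03. At 24 h GTF3A, the 5S gene factor, was at -0.67, GTF3C6 at -0.35, TBP at -0.28 and GTF3C5 at -0.26. BDP1, a TFIIIB subunit, was at 0.47, GTF3C1 at 0.39, POU2F1, which binds octamer elements of 7SK-type promoters, at 0.36, and GTF3C4 at 0.11, where GTF3C4 turned to -0.04 with the length trend removed. SNAPC4 was at -0.24, GTF3A at 0.10 and GTF3C4 at 0.07 at 48 h, and GTF3C1 (0.10) and GTF3C4 (0.06) at 72 h lost their calls in 3 fits without 1 library each; GTF3C4 at 48 h lost its call without the GFP high library of set 1 (0.06). With the replicate block, whose shares of all tested genes are not given here, 5 factors were lower at 48 h and 3 lower at 72 h.

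**Figure D5:**
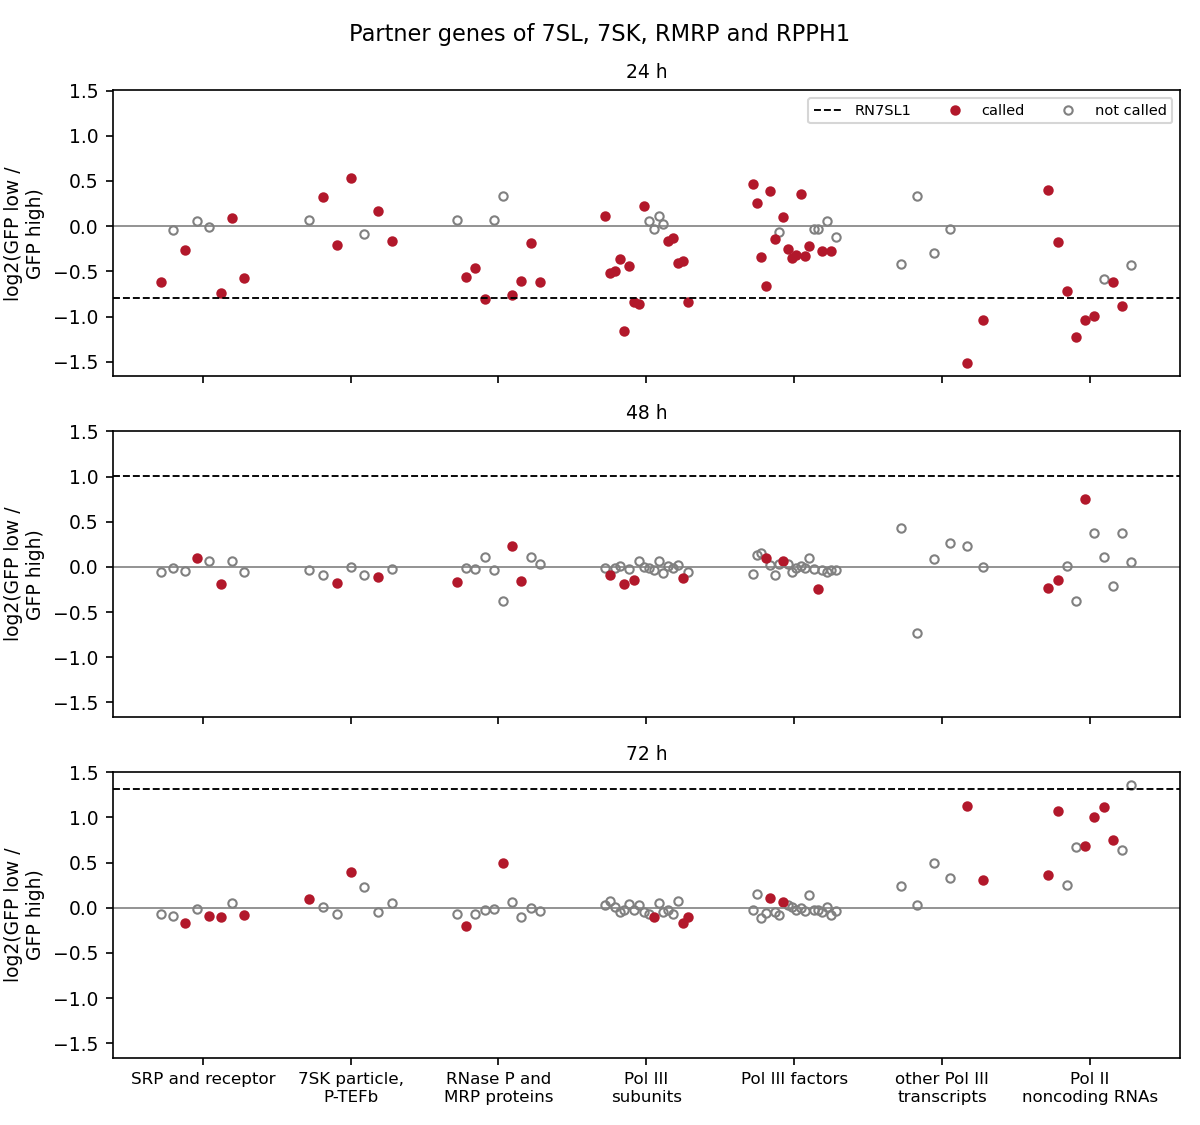
Log2 ratio of GFP low over GFP high (y axis) at 24, 48 and 72 h (panels, top to bottom) for each tested gene of 7 lists (x axis); red points were called, open points not, and the dashed line gives RN7SL1. At 72 h RN7SL1 stood at 1.32, while the protein lists had medians between -0.08 and 0.05.

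RNY1 and RNU6ATAC, 2 other polymerase III transcripts, had the sign of RN7SL1 at 24 and 72 h, and neither was called at 48 h. Of 15 other polymerase III transcripts, 6 passed the filter: 2 were called lower at 24 h, none at 48 h and 2 higher at 72 h, where 28.5% of all tested genes were called lower at 24 h and 12.9% higher at 72 h. RNY1, a Y RNA that binds the Ro60 protein, averaged 6.63 ± 1.14 CPM in GFP low and 13.7 ± 2.76 CPM in GFP high cells at 24 h (-1.04, edgeR adjusted p = 1.31e-06), and 29.9 ± 4.16 CPM in GFP low and 24.2 ± 2.50 CPM in GFP high cells at 72 h (0.31, adjusted p = 0.0467). The 72 h call of RNY1 was lost in 4 of 6 fits without 1 library and with the robust prior (adjusted p = 0.114). RNU6ATAC, of the minor spliceosome, stood at -1.52 ± 0.27 at 24 h and 1.13 ± 0.22 at 72 h, at low levels. It averaged 0.60 ± 0.11 CPM in GFP low and 1.77 ± 0.47 CPM in GFP high cells at 24 h. At 72 h it averaged 3.70 ± 1.10 CPM in GFP low and 1.69 ± 0.21 CPM in GFP high cells.

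Of 16 other noncoding RNAs, made by polymerase II, 10 were tested: 7 were called lower and 1 higher at 24 h, 2 lower and 1 higher at 48 h, and 6 higher and none lower at 72 h, beside 57.9%, 23.8% and 26.4% of all tested genes called in either direction. RNU4-1 and RNU4-2, which encode U4 RNA and are near-identical, had log2 fold changes of -1.03 and -0.99 at 24 h, then 0.68 and 1.01 at 72 h. At 48 h RNU4-1 was at 0.75, a call lost in 3 of 6 fits without 1 library, and RNU4-2 at 0.37 was not called. RNU5B-1, a U5 gene, was at -0.88 at 24 h. NEAT1, the paraspeckle scaffold, stood at -0.18, -0.15 and 1.07, and MALAT1, of nuclear speckles, at 0.40, -0.23 and 0.36. MALAT1 averaged 4194 ± 125 CPM in GFP low and 3174 ± 71.6 CPM in GFP high cells at 24 h, and its sign was opposite to that of RN7SL1 at 24 and 48 h.

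Protein-coding neighbours that start close to the members at 0 were measured. PARP2, 207 bases from RPPH1 on the other strand, stood at -0.31 ± 0.04, -0.21 ± 0.04 and -0.17 ± 0.04 at 24, 48 and 72 h (edgeR adjusted p = 1.32e-07, 0.000144 and 0.00102). It averaged 46.8 ± 0.91 CPM in GFP low and 58.2 ± 2.13 CPM in GFP high cells at 24 h. GSTA4, 316 bases from RN7SK, averaged 1.28 ± 0.17 CPM in GFP low and 0.85 ± 0.04 CPM in GFP high cells at 24 h (0.59, edgeR adjusted p = 0.0208), and stood at 0.67 at 48 h (adjusted p = 0.0280) and 0.42 at 72 h (adjusted p = 0.154). CCDC107, 272 bases from RMRP, was not called at any time (-0.20, 0.05 and -0.03; edgeR adjusted p = 0.0617, 0.758 and 0.831). RPS29, around RN7SL1, stood at -0.81, 0.04 and 0.21, beside -0.80, 1.00 and 1.32 for RN7SL1. At 48 h RPS29 was not called (edgeR adjusted p = 0.367), and a difference between these genes was not tested.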

How the data were processed

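The values are counts of reads per gene as deposited. Per the submitters' processing notes, the tools included FastQC, STAR and featureCounts (Subread) with R 4.2.1 and build hg38. The sources used here do not give strand, multi-mapping or overlap settings. Per the labels' protocols, total RNA was depleted of ribosomal RNA before library preparation. Of 60710 lines, 3 belonged to a gene entry broken over several lines and were left out, leaving 60707 genes. Groups came from the labels, and columns were matched to groups by name. Counts were filtered, scaled by TMM and tested with edgeR 4.0.16 (quasi-likelihood, 6 group means, 16474 genes, 12 residual degrees of freedom, Benjamini-Hochberg adjusted p below 0.05), in R 4.3.3. DESeq2 1.42.0, other scalings, no filter, a length correction, summed copies and left-out libraries were alternatives; summing the copies and robust priors were chosen after seeing the data. The scripts were tested on simulated data. Column names give 3 library sets, an unnumbered one, 1 and 2. Libraries of one set deviated together from their group means (correlation of deviations 0.10 to 0.31 over 45 pairs). The median over 90 pairs of different sets was -0.11, a sign that centring on group means itself gives when sets deviate together. So the sets were used as the replicate block. In that fit the dispersion trend came from the group means, since a trend estimated with the block terms did not converge for abundant genes such as RN7SL1. The members and gene lists were chosen with earlier results of these data known. From each list, up to 4 called genes in each direction at each time were named, by adjusted p; copies of 7SL and 7SK were named after their values were seen. Some items, among them certain sequences and genes, are not reported here.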

Additional observations from a re-analysis of the deposited data

Results flagged for a closer look

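The difference between GFP low and GFP high cells changed with time, by a test of the change itself. For RN7SL1 it was larger at 48 than at 24 h by 1.80 log2 units and larger at 72 than at 24 h by 2.12. For RN7SL3 these changes were 1.23 (edgeR adjusted p = 3.69e-07) and 1.38 (edgeR adjusted p = 4.55e-08). For RN7SKP80 they were 1.23 (edgeR adjusted p = 3.23e-11) and 1.57 (edgeR adjusted p = 2.25e-13), and its difference was also larger at 72 than at 48 h by 0.33 (edgeR adjusted p = 0.00839).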

How the results depend on the processing

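RN7SL1 kept its direction and call between GFP low and GFP high cells at each time under every alternative run. Without 1 library the log2 values ran from -0.96 to -0.71 at 24 h, 0.87 to 1.13 at 48 h and 1.21 to 1.39 at 72 h. With a robust prior, under which RN7SL1 keeps its own spread, the adjusted p-values were 0.000978, 0.000621 and 5.75e-05. The rise of RN7SL1 in GFP low cells between 24 and 48 h lost its call with library totals only (0.25), with the length trend removed (0.14) and with DESeq2 (0.31). The robust prior lost it by itself (0.31), joined to the replicate block (0.32) and joined to no filter (0.33). Without the robust prior, the block and no filter kept this call. It was also lost in 4 of 6 fits without 1 library, which ran from 0.22 to 0.47. Those were the fits without the GFP low 24 h unnumbered and set 1 libraries and the GFP low 48 h unnumbered and set 2 libraries. Between 24 and 72 h in GFP high cells RN7SL1 ran from -0.51 to -0.32 without 1 library. Its call there was lost with the robust prior (-0.43, edgeR adjusted p = 0.0720). The same held for the robust prior and no filter together (-0.43, edgeR adjusted p = 0.177). The growth of the difference of RN7SL1 from 48 to 72 h passed with the replicate block (0.32), with the block and the length trend removed (0.23), and with no filter on low counts (0.30, adjusted p = 6.42e-21). In the fit with no filter the prior had no limit on its degrees of freedom, so the spread of RN7SL1 itself did not count, and with the robust prior its adjusted p was 0.810. GTF3C4 at 24 h reversed with the length trend removed (-0.041), also with the replicate block (-0.041). The cause of other losses was not tested. Library totals alone moved the median of all genes by 0.13 at 24 h. Beyond the values printed with their results, the block changed no other call of RN7SL1, RN7SL3, RN7SKP80 or the list genes named.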

Other observations

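Small nucleolar RNA genes and genes of the mitochondrial genome differed in sign from RN7SL1 at 48 h. Of all tested genes, 28.5%, 13.2% and 13.5% were called lower and 29.3%, 10.6% and 12.9% higher at 24, 48 and 72 h. Of 127 tested small nucleolar RNA genes, 39 were called lower and 2 higher at 24 h, 27 lower and 3 higher at 48 h, and 21 higher and none lower at 72 h. The count called lower at 24 h lay near the share of all tested genes. Their median log2 fold changes were -0.28, -0.31 and 0.16. Of 35 tested mitochondrial genes, 19 were called lower and 2 higher at 24 h, 24 lower and none higher at 48 h, and 19 higher and 2 lower at 72 h, with medians of -0.32, -0.40 and 0.51.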
